A study of Mus musculus with 6 samples.

Results

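The 10 genes described here encode phosphodiesterases that degrade cyclic AMP: *Pde3a*, *Pde3b*, *Pde4a*, *Pde4b*, *Pde4d*, *Pde7a*, *Pde7b*, *Pde8a*, *Pde8b* and *Pde10a*. They were taken by gene symbol, which gave 10 of the 33696 genes counted, each with 1 entry. Cyclic AMP is made by adenylyl cyclases downstream of the stimulatory G protein, activates protein kinase A and the exchange factors EPAC, and is broken down by phosphodiesterases. The PDE4, PDE7 and PDE8 enzymes act on cyclic AMP alone, PDE3 enzymes act on cyclic AMP and are held back by cyclic GMP, and PDE10A acts on both nucleotides. In skeletal cells, protein kinase A restrains Hedgehog signaling, the pathway read out by *Gli1*, and loss of the stimulatory G protein is a known cause of bone formation outside the skeleton.

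Achilles tendon cells of *Gli1-CreERT2*; Ai9 mice were profiled by scRNA-seq. In these mice tamoxifen switches on a red reporter, for good, in cells that express *Gli1* and in all their progeny, and cells were sorted by that reporter into *Gli1*+ and *Gli1*- fractions. Tendons were uninjured or had been cut (tenotomy), with collection at 7 or 21 days post injury (dpi), the stages that lead to heterotopic ossification, the growth of bone in soft tissue. All groups carried both alleles and received tamoxifen, with 8 mice for each time point and 24 in all, and each sort and time point was 1 library made from pooled animals. The age of the mice was not given in the sources used here.

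Each condition was 1 library, so differences between conditions are given without a test. Levels are CPM, the UMIs of a gene scaled to a total of 1000000, summed over the cells of a type, and the intervals at 95% cover counting error only, not the spread between mice. Types are named from marker genes, so each name stands for cells like that type. A gene was counted as higher or lower when its CPM differed by at least 1.5-fold (0.58 on the log2 scale) between 2 libraries.

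Several features of the libraries bear on the comparisons. After filtering, the libraries held 7057 to 10882 cells and 53589094 to 107755024 UMIs. Immune cells made up 52.9% of the uninjured *Gli1*+ library, as lymphoid, mast and myeloid clusters, and no such cluster was found in the other 5 libraries. By Y-linked and *Xist* UMIs, the mesenchymal cells that could be called were male, but for 1 cell in each sort, at 7 dpi and female, but for 9 and 3 cells, at 21 dpi. Those of uninjured *Gli1*- tendon were male, and those of uninjured *Gli1*+ tendon were mixed, with 1492 female and 596 male cells. The submitters' notes give both sexes in equal number over the cohort, which the cells kept do not show, and every ratio to uninjured tendon carries this. With 0 female mesenchymal cells in the uninjured *Gli1*- library, the female cells of the uninjured *Gli1*+ library are of mice not seen there. Whether the male cells of both are of the same mice was not tested. Over all kept cells, another gene, *Cntn5*, was at 1.80 CPM in the uninjured *Gli1*+ library and 654 CPM in the uninjured *Gli1*- one. *Cntn5* was at 173 and 206 CPM at 7 dpi and at 0.560 and 0.388 CPM at 21 dpi. What this split comes from was not tested, and male cells alone were not read for it. Sort differences before injury and *Gli1*+ ratios of 7 dpi to uninjured are among those that lie across it. A difference between sorts before injury may thus also be one between animals. Sex and time cannot be told apart for *Gli1*- cells at 21 dpi, nor between 7 and 21 dpi in either sort. This holds for every difference between 7 and 21 dpi given below. Within-sex values stand beside a mesenchymal result where they move its call. *Gli1* itself was at 13.4, 2.14 and 4.23 CPM for the *Gli1*+ sort and at 8.88, 2.54 and 4.39 CPM in *Gli1*- mesenchymal cells of uninjured, 7 dpi and 21 dpi tendon. The sorts thus differed little in current *Gli1* mRNA after injury. Of the 57767 cells kept, 341 barcodes were found in more than 1 library.

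The comparison the design implies is injured against uninjured tendon within each sort, and it was made first in mesenchymal cells, the fibroblast, tendon and cartilage lineage. These were the clusters with markers of tendon stem cells, tenocytes or chondrocytes, and those with no name and at least 100 CPM of *Pdgfra*. They held 2468, 7000 and 8084 *Gli1*+ cells and 5774, 7989 and 7558 *Gli1*- cells in the order uninjured, 7 dpi, 21 dpi. The 7 mesenchymal markers summed to between 28754 and 52537 CPM in them. All 10 phosphodiesterases had at least 10 UMIs in each comparison. At 7 dpi in *Gli1*+ cells, 2 were higher and 5 lower, where 59.5% of all 20182 genes tested passed 1.5-fold (23.6% higher and 35.9% lower). With TMM factors, a scaling that sets the bulk of genes equal, it was 3 higher and 1 lower, against 58.6% of all genes (32.1% higher and 26.5% lower). At 7 dpi in *Gli1*- cells, 3 were higher and 4 lower, against 54.4% of all genes (25.5% higher and 28.9% lower). With TMM factors it was 3 and 3, against 54.4% of all genes (28.9% higher and 25.5% lower). At 21 dpi in *Gli1*+ cells, 2 were higher and 1 lower, against 56.1% of all genes (15.5% higher and 40.6% lower). With TMM factors it was 4 and 1, against 53.3% of all genes (29% higher and 24.2% lower). At 21 dpi in *Gli1*- cells, 4 were higher and 2 lower under either scaling, against 53.5% of all genes (23.1% higher and 30.4% lower) and, with TMM factors, 52.9% (28.4% higher and 24.5% lower). Without the clusters led by *Tnn* and *Saa3*, which came up with injury, 0 members passed at 7 dpi in *Gli1*+ cells, against 53.9% of all genes, and 4 in *Gli1*- cells, against 48.7%. No count was tested against the share of all genes, none is read as a result about the family, and the members are described one by one. The median log2 ratio of the members was -0.47 and 0.05 in *Gli1*+ cells and 0.06 and 0.26 in *Gli1*- cells at 7 and 21 dpi, where that of all genes tested was -0.20 and -0.38 and -0.08 and -0.12.

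**Figure D1:**
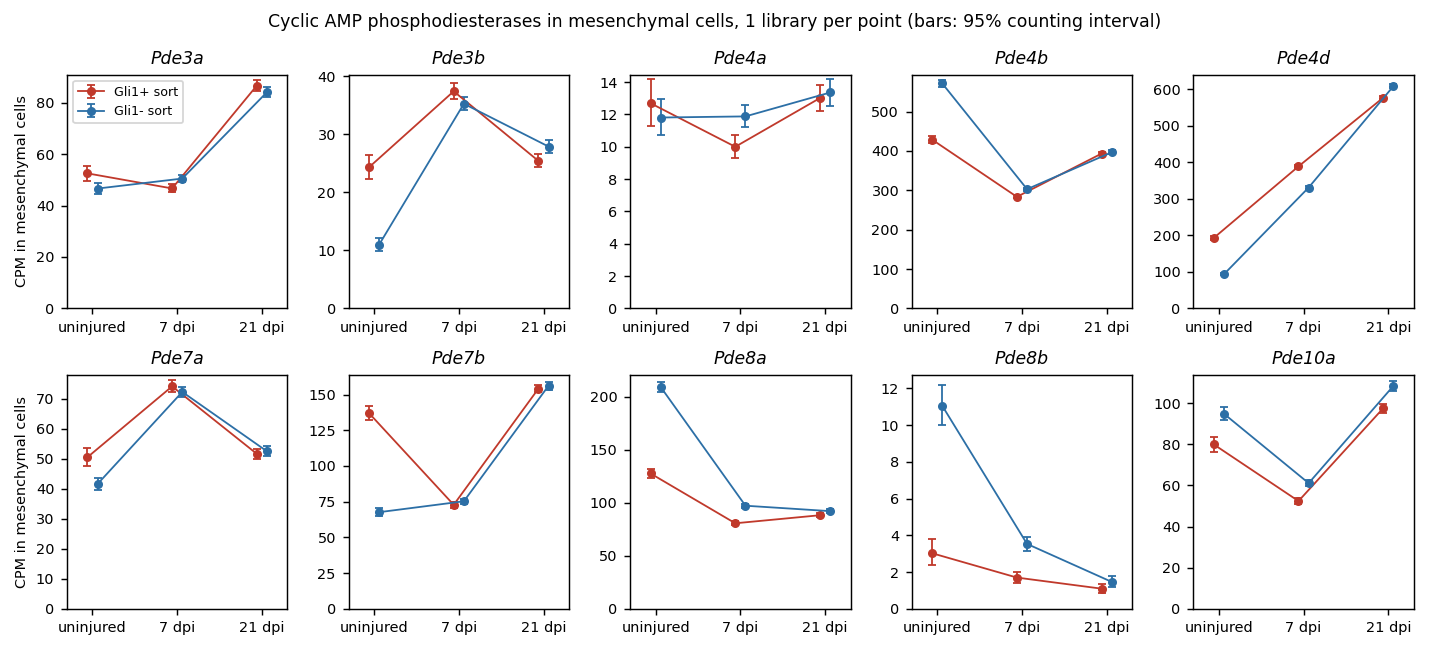
CPM of each phosphodiesterase gene (vertical axes, from 0, each gene on its own scale) in mesenchymal cells of uninjured, 7 dpi and 21 dpi tendon, with *Gli1*+ in red and *Gli1*- in blue, 1 library per point and bars for the 95% counting interval. *Pde4d* is higher at each later time in both sorts, from 193 to 577 and from 93.5 to 609 CPM, while *Pde8a* and *Pde8b* are highest before injury.

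*Pde4d*, a cyclic AMP-specific enzyme that is tethered near receptors and anchoring proteins, had the largest ratio of injured to uninjured among the members in all 4 comparisons. It was at 193, 389 and 577 CPM in *Gli1*+ mesenchymal cells of uninjured, 7 dpi and 21 dpi tendon. For the *Gli1*- sort the levels were 93.5, 331 and 609 CPM. Each library after injury was above each uninjured library. The level was higher at 21 dpi than at 7 dpi in both sorts, a step that is also one from male to female cells. The ratio to uninjured was 2.02-fold at 7 dpi and 2.99-fold at 21 dpi in *Gli1*+ cells, with log2 ratios of 1.01 (0.97 to 1.06) and 1.58 (1.54 to 1.63). In *Gli1*- cells it was 3.54-fold and 6.51-fold, with log2 ratios of 1.82 (1.77 to 1.88) and 2.70 (2.65 to 2.75). The sorts differed before injury, when *Gli1*+ cells were 1.05 higher on the log2 scale, and came within 0.08 of each other at 21 dpi. Cells of 1 sex gave like values: the log2 ratio was 0.97 for male *Gli1*+ cells and 1.92 for male *Gli1*- cells at 7 dpi, and 1.66 for female *Gli1*+ cells at 21 dpi.

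The share of mesenchymal cells with a *Pde4d* UMI moved the same way once every cell was thinned to 2000 UMIs. It was 21.1%, 39.0% and 48.5% in *Gli1*+ cells and 12.4%, 31.6% and 45.3% in *Gli1*- cells of uninjured, 7 dpi and 21 dpi tendon, and without thinning 40.7%, 70.7% and 76.0% and 23.7%, 65.8% and 72.1%. Thinning left out 40 to 255 shallower cells per library. The lowest share of any endothelial or mesenchymal population was 6.37% in endothelial cells of uninjured *Gli1*- tendon, at a median of 2539 UMIs against 5785.5 in the mesenchymal cells of that library. *Pde4d* spans 1504 kb (GRCm38, chr13:108449948-109953461). The median log2 ratio of genes of 500 kb or more was -0.54 and -0.77 in *Gli1*+ cells and -0.32 and -0.37 in *Gli1*- cells at 7 and 21 dpi, over 165 to 175 genes. That of genes under 100 kb was -0.07 and -0.19 in *Gli1*+ cells and 0.005 and -0.06 in *Gli1*- cells. Whether gene length bears on the *Pde4d* ratio was not tested.

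**Figure D2:**
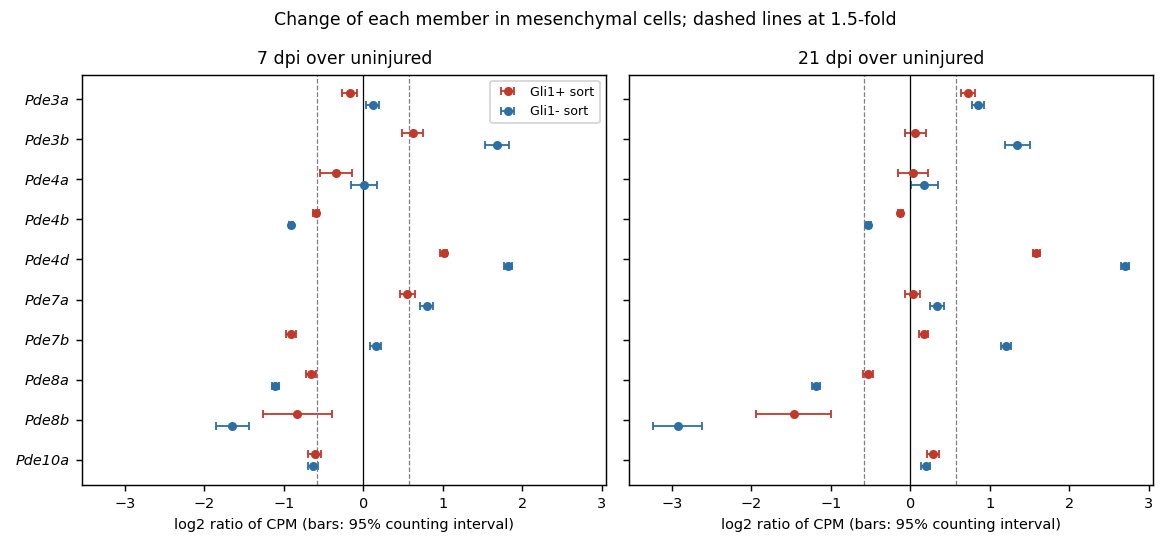
Log2 ratio of CPM in mesenchymal cells at 7 dpi (left) and 21 dpi (right) over uninjured tendon for each gene (vertical axis), *Gli1*+ in red and *Gli1*- in blue, with 95% counting intervals and dashed lines at 1.5-fold. *Pde4d* lies right of the line in all 4 comparisons, from 1.01 to 2.70, and *Pde8b* left of it in all 4, from -0.83 to -2.92.

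The *Pde4d* level was uneven across mesenchymal clusters, which were made without the phosphodiesterase genes among the variable genes. At 21 dpi the highest levels were 1075 CPM for *Gli1*+ cells, and 1164 CPM in *Gli1*- cells of the clusters led by *Saa3* and *Mmp13*, an acute-phase protein and a collagenase, together with 1087 CPM in a small *Gli1*+ cluster led by *Hpse2* and *Gpc5*. At 7 dpi the clusters led by *Crabp1*, *Tnn* and *Tnc*, the last 2 matrix proteins of wounds, held 486 CPM for *Gli1*+ cells and 468 CPM in *Gli1*- cells. These clusters were all but absent from uninjured tendon, with 2 and 0 cells. In contrast, *Pde4d* was lowest in the *Gli1*- cluster led by *Dpp4*, a marker of fibroblast progenitors, at 20.1, 56.1 and 73.3 CPM.

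Within single clusters that had at least 50 cells at both times, *Pde4d* was at least 1.5-fold higher at 21 dpi than before injury in 2 of 4 *Gli1*+ clusters and 4 of 5 *Gli1*- clusters, and lower by that fold in none of them. The *Gli1*- cluster led by *Hsd11b1* and *Ccl11* went from 106 CPM in 3056 cells to 304 CPM in 167 cells and 406 CPM in 138 cells. The *Gli1*- cluster led by *C7* and *Inmt* stayed near its starting level at 92.9, 96.1 and 112 CPM. At 7 dpi *Pde4d* was higher by 1.5-fold in 3 of 5 *Gli1*- clusters and lower in 0, with log2 ratios from -0.20 to 1.52. In the 1 *Gli1*+ cluster with enough cells at 7 dpi the ratio was -0.45. The cell make-up moved in both sorts, and the level within clusters moved in some clusters and not in others. Without the *Tnn*- and *Saa3*-led clusters, a choice made after seeing the data, the log2 ratio at 7 dpi was -0.047 for *Gli1*+ cells and 0.42 for *Gli1*- cells, and at 21 dpi 1.30 and 2.32. The 7 dpi difference thus fell under 1.5-fold without these clusters, and the 21 dpi difference did not. Tenocyte-like cells, named from *Scx*, *Tnmd*, *Fmod*, *Mkx*, *Thbs4* and *Kera*, did not have more *Pde4d* at 7 dpi than before injury, going from 278 to 245 CPM in the *Gli1*+ sort and from 303 to 264 CPM in the *Gli1*- sort. At 21 dpi they held 566 and 513 CPM. In the *Gli1*+ sort these cells lay in different clusters at each time, with 675 of 738 in the *Col22a1*- and *Kirrel3*-led cluster before injury, 769 of 782 in the *Chodl*- and *Ptx4*-led cluster at 7 dpi and 2903 of 3318 in the *Matn4*- and *Cilp2*-led cluster at 21 dpi. Within the first of these, *Pde4d* was at 295 CPM before injury and 263 CPM in 405 cells at 21 dpi, and within the last at 111 CPM in 63 cells and 585 CPM.

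**Figure D3:**
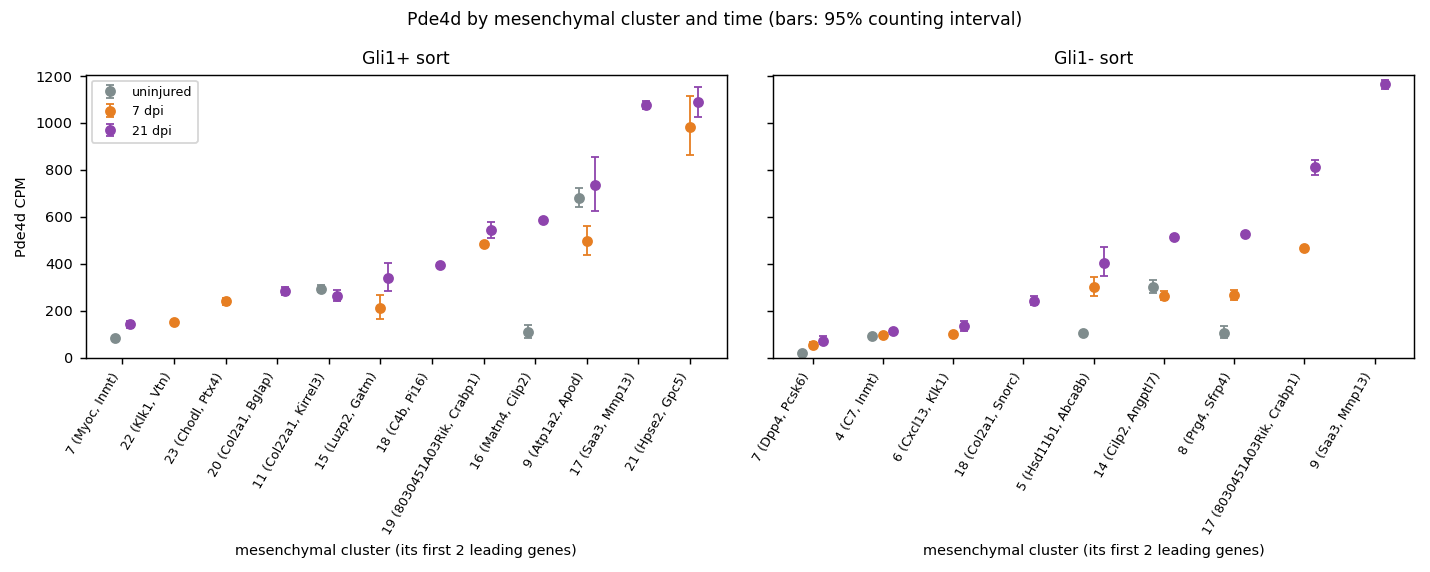
*Pde4d* CPM (vertical axis, from 0) in each mesenchymal cluster with at least 50 cells in a library, *Gli1*+ on the left and *Gli1*- on the right, colored by time, with 95% counting intervals, and clusters ordered by their highest level and named by their first 2 leading genes. The *Saa3*- and *Mmp13*-led clusters reach 1075 and 1164 CPM at 21 dpi, and the cluster led by *Dpp4* stays at or below 73.3 CPM.

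*Pde4b*, the other abundant cyclic AMP-specific enzyme of the PDE4 group, was lower at 7 dpi over all mesenchymal cells, where *Pde4d* was higher. It was at 429, 284 and 393 CPM for the *Gli1*+ sort and at 571, 303 and 397 CPM in *Gli1*- mesenchymal cells of uninjured, 7 dpi and 21 dpi tendon. The lowest library of each sort was the one of 7 dpi. The log2 ratio at 7 dpi was -0.60 (-0.63 to -0.56) for *Gli1*+ cells, which became -0.30 with TMM factors, and -0.92 (-0.94 to -0.89) for *Gli1*- cells. At 21 dpi it was within 1.5-fold, at -0.12 and -0.53, and the former became 0.33 with TMM factors. Within *Gli1*- clusters the 7 dpi level was higher by 1.5-fold in 2 of 5 and lower in 1, with log2 ratios from -1.19 to 1.54. It went from 1092 to 479 CPM in the tenocyte-like cluster, 871 to 861 CPM in the *Hsd11b1*- and *Ccl11*-led cluster, and 292 to 521 CPM in the *C7*- and *Inmt*-led cluster. In the 1 *Gli1*+ cluster with enough cells the ratio was 0.24. Tenocyte-like *Gli1*+ cells went from 912 to 533 CPM of *Pde4b*. Tendon stem cell-like cells went from 230 to 313 CPM of *Pde4b* in the *Gli1*+ sort and from 166 to 289 CPM in the *Gli1*- sort. In the *Tnn*-led clusters of 7 dpi *Pde4b* was at 251 and 264 CPM. Without the *Tnn*- and *Saa3*-led clusters the 7 dpi ratio was -0.28 for *Gli1*+ cells and -0.66 for *Gli1*- cells, the latter still past 1.5-fold. The log2 ratio of *Pde4d* to *Pde4b* UMIs, which does not depend on the scaling of a library, went from -1.15 to 0.46 and 0.55 in *Gli1*+ cells and from -2.61 to 0.13 and 0.62 in *Gli1*- mesenchymal cells. *Pde4a*, the remaining PDE4 gene of the set, stayed between 9.996 and 13.4 CPM in all 6 libraries and passed 1.5-fold in none of the 4 comparisons.

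The PDE8 genes encode enzymes with high affinity for cyclic AMP, and both were below their uninjured level in every injured library, although not always by 1.5-fold. *Pde8a* was at 127, 80.6 and 88.1 CPM for the *Gli1*+ sort and at 209, 97.1 and 92.0 CPM in *Gli1*- mesenchymal cells. The 4 injured libraries lay in a narrow band below both uninjured ones. At 7 and 21 dpi its log2 ratio for the *Gli1*- sort was -1.11 (-1.15 to -1.06) and -1.18 (-1.23 to -1.14). For the *Gli1*+ sort it was smaller, -0.66 (-0.73 to -0.60) and -0.53 (-0.59 to -0.47), and with TMM factors -0.37 and -0.08. Without the *Tnn*- and *Saa3*-led clusters the *Gli1*+ value at 7 dpi was -0.17. Within *Gli1*+ clusters *Pde8a* was lower by 1.5-fold in 0 of 1 at 7 dpi and in 0 of 4 at 21 dpi. Within *Gli1*- clusters *Pde8a* was lower by 1.5-fold in 3 of 5 and higher in 0 at 7 dpi, and lower in 2 and higher in 1 at 21 dpi, with log2 ratios from -1.09 to 1.02. The *Hsd11b1*- and *Dpp4*-led clusters, among those lower, went from 3056 and 903 cells before injury to 138 and 159 at 21 dpi, so the ratio of the whole class holds both make-up and level. Its level was highest in the *Gli1*- cluster led by *Dpp4*, where *Pde4d* was lowest, at 645, 363 and 400 CPM. *Pde8b* was rare in mesenchymal cells, at 3.02, 1.70 and 1.09 CPM for *Gli1*+ cells, and 11.05, 3.53 and 1.46 CPM in *Gli1*- cells. Its level at 21 dpi was 2.76-fold lower than before injury for *Gli1*+ cells and 7.56-fold lower for *Gli1*- cells. At 7 dpi the *Gli1*+ ratio of -0.83 (-1.27 to -0.39) changed sign with thinning, to 0.058, and among male cells, to 0.042. *Pde8b* was a gene of mural cells in these data, and the 7 mural markers stood in mesenchymal cells at 0.776% to 8.48% of their level in mural cells. That share of the mural *Pde8b* level would be 2.58, 4.53 and 1.02 CPM for the *Gli1*+ sort and 4.04, 3.04 and 1.06 CPM for the *Gli1*- sort. They exceed the measured level at 7 dpi in the *Gli1*+ sort and lie well below it in uninjured *Gli1*- tendon. In every other library they are most of the measured level, and what mural RNA contributes was not tested. Within *Gli1*+ clusters, on few UMIs, *Pde8b* at 21 dpi was higher by 1.5-fold in 2 of 4 and lower in 1. At 7 dpi it was higher in the 1 *Gli1*+ cluster with enough cells. Within 5 *Gli1*- clusters it was higher in 1 and lower in 2 at 7 dpi, and higher in 0 and lower in 3 at 21 dpi.

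The starts of transcription annotated for the members were searched for the sequence bound by CREB, a transcription factor that protein kinase A activates. RefSeq windows of 300 bases, with 250 before and 50 after each start on GRCm38.p6, were found for 7 of the 10 genes, with 17 windows in all. The full palindrome TGACGTCA was in none of the 17, and is in 1.79% of all 32851 windows. Its first 5 letters, TGACG on either strand, were in 4 of them, and are in 20.8% of all windows. The stretches of 250 bases before a start are shown for *Pde4d* (chr13:108653927-108654176, 38.8% G and C), the gene with the largest ratio, for *Pde8a* (chr7:81213015-81213264), which was lower at 7 dpi in both sorts, and for the *Pde4b* window that holds a match (chr4:102421305-102421554). Capitals mark TGACG or its reverse complement CGTCA, which overlaps it in the full palindrome.
Pde4d: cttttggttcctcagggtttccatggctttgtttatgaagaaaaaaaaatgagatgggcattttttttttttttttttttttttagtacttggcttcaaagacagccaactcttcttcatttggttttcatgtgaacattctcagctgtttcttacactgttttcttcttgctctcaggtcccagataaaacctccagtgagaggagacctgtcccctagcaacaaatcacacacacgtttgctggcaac
Pde8a: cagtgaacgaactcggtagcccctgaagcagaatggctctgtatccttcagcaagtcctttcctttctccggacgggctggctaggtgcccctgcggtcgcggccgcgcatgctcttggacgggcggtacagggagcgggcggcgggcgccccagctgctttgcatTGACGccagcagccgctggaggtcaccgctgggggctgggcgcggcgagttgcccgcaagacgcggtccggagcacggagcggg
Pde4b: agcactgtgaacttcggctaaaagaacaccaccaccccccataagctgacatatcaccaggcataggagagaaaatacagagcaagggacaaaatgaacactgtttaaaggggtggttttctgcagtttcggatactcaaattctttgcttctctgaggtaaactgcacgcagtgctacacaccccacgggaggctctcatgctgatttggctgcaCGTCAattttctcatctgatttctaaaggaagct
The match lies 84 bases before the start in *Pde8a* and 34 bases before it in *Pde4b*, and none is present in the *Pde4d* stretch. *Pde4d* has other starts that are not covered by this window.

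The PDE3 and PDE7 genes differed in timing. *Pde3a*, whose enzyme is the main PDE3 of heart and smooth muscle, was at 52.5, 46.6 and 86.6 CPM for the *Gli1*+ sort and at 46.6, 50.5 and 84.1 CPM in *Gli1*- mesenchymal cells. The 21 dpi libraries stood above the other 4. *Pde3a* was highest in mural cells, and the share of the mural *Pde3a* level carried by mural markers would be 8.45, 47.2 and 13.0 CPM for the *Gli1*+ sort and 12.3, 29.9 and 14.6 CPM for the *Gli1*- sort. At 7 dpi in the *Gli1*+ sort that is as much as was measured, and what mural RNA contributes was not tested. Its log2 ratio at 21 dpi was 0.72 (0.63 to 0.81) for the *Gli1*+ sort, 0.85 (0.77 to 0.93) for the *Gli1*- sort, and 0.52 in female *Gli1*+ cells, below the fold used here. Within the uninjured *Gli1*+ library, female mesenchymal cells held 60.8 and male cells 36.3 CPM of *Pde3a*, a log2 difference of 0.74 (0.53 to 0.97). The level thus differed by sex in this library, and the cluster make-up of the female and male cells was not compared. *Pde3b*, the PDE3 enzyme of fat cells that insulin activates, was at 24.3, 37.4 and 25.4 CPM for *Gli1*+ cells, and 10.99, 35.3 and 27.9 CPM in *Gli1*- cells. It was highest at 7 dpi in both sorts, with log2 ratios of 0.62 (0.49 to 0.75) and 1.68 (1.53 to 1.83), and in *Gli1*- cells it was still 1.34 higher at 21 dpi. The *Gli1*+ ratio at 7 dpi was under 1.5-fold in male cells, at 0.47, and without the *Tnn*- and *Saa3*-led clusters, at 0.32. Without those clusters the *Gli1*- levels were 10.99, 20.6 and 27.5 CPM, so that the highest was the one of 21 dpi. Within the 5 *Gli1*- clusters with at least 50 cells at both times, the 21 dpi level of *Pde3b* was higher by 1.5-fold in 1, lower in 2 and 0 UMIs in 1, which allows up to 6.84 CPM. The tenocyte-like cluster was one of those lower, from 57.4 CPM in 218 cells to 28.0 CPM in 2413 cells.

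*Pde7a* was also highest at 7 dpi, at 50.5, 74.2 and 51.6 CPM for *Gli1*+ cells, and 41.6, 72.3 and 52.5 CPM in *Gli1*- mesenchymal cells. Its 7 dpi ratio passed 1.5-fold in *Gli1*- but not in *Gli1*+ cells, at 0.80 (0.72 to 0.88) against 0.55 (0.46 to 0.65), and whether the sorts differ was not tested. The *Gli1*+ ratio was past 1.5-fold with TMM factors, at 0.85, and in male cells, at 0.76, and without the *Tnn*- and *Saa3*-led clusters the *Gli1*- ratio was -0.14. *Pde7b* was the member in which the sorts started furthest apart after *Pde8b*, *Pde3b* and *Pde4d*, at 137 CPM for *Gli1*+ cells, and 67.6 CPM in *Gli1*- cells of uninjured tendon. By 7 dpi it was at 72.8 and 75.3 CPM, and by 21 dpi at 154 and 156 CPM. The sorts stood 1.02 apart on the log2 scale before injury, or 0.65 among male cells, and within 0.05 after it. The log2 ratio at 7 dpi was -0.91 (-0.98 to -0.85) for the *Gli1*+ sort, and -0.40 without the *Tnn*- and *Saa3*-led clusters, against 0.15 (0.09 to 0.22) for the *Gli1*- sort. In male *Gli1*+ cells it was -0.59. At 21 dpi it was 0.17 and 1.21, the former 0.63 with TMM factors and the latter also a step from male to female cells. Within the uninjured *Gli1*+ library, female mesenchymal cells held 151 and male cells 110 CPM of *Pde7b*, a log2 difference of 0.46 (0.33 to 0.59). Within *Gli1*- clusters *Pde7b* was higher by 1.5-fold in 3 of 5 at 7 dpi and 4 of 5 at 21 dpi, and lower in 0. For the *Gli1*+ sort it was -0.79 in the 1 cluster at 7 dpi, and higher in 1 of 4 and lower in 0 at 21 dpi. *Pde10a*, an enzyme best known from striatal neurons, was lower at 7 dpi in both sorts, at -0.61 and -0.64 on the log2 scale. These ratios were -0.31 and -0.53 with TMM factors, and -0.17 and -0.43 without the *Tnn*- and *Saa3*-led clusters. In male *Gli1*+ cells the ratio was -0.54. *Pde10a* stood at 97.6 and 108 CPM at 21 dpi from 80.0 and 94.9 CPM before injury. Within *Gli1*- clusters the 7 dpi level of *Pde10a* was higher by 1.5-fold in 2 of 5 and lower in 0, with log2 ratios from -0.47 to 1.24, and in the 1 *Gli1*+ cluster with enough cells the ratio was -0.01.

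Between sorts, 5 of the 10 members differed by at least 1.5-fold in uninjured mesenchymal cells (39.2% of all genes did), 1 at 7 dpi (18.8%) and 0 at 21 dpi (14.7%). TMM factors moved the uninjured log2 differences by -0.25. In uninjured tendon *Pde3b*, *Pde4d* and *Pde7b* were higher in the *Gli1*+ sort, by 1.15, 1.05 and 1.02 on the log2 scale, and *Pde8a* and *Pde8b* were lower, by 0.71 and 1.87. Among male cells alone, 596 and 4051, the log2 differences of these 5 genes were 1.37, 1.17, 0.65, -0.82 and -2.72 in that order, and that of *Pde3a* was -0.42 where all cells gave 0.17. *Pde3b* was abundant in the lymphoid cells of the uninjured *Gli1*+ library, whose 9 markers stood in its mesenchymal cells at 1.20% of their lymphoid level. That share of the lymphoid *Pde3b* level would be 3.15 CPM, beside the 24.3 CPM measured and the 10.99 CPM of the *Gli1*- sort, and by the same measure mast and myeloid cells would add 0.452 and 0.247 CPM. What immune RNA contributes was not tested.

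Outside mesenchymal cells, *Pde4d* was also higher after injury in endothelial cells. Its levels were 69.5, 291 and 450 CPM in the *Gli1*+ sort and at 42.9, 386 and 558 CPM in the *Gli1*- sort, which holds most endothelial cells, 3514, 982 and 1615. The uninjured libraries were the lowest of both sorts, and the log2 ratio at 21 dpi was 2.69 (2.45 to 2.95) and 3.70 (3.56 to 3.84). The *Gli1*- endothelial cells lay in 2 clusters, of which the one led by *Selp*, *Sele* and *Ackr1*, genes of venules, held 126, 256 and 794 cells. *Pde4d* was higher after injury in both, at 33.1, 128 and 114 CPM in the cluster led by *Cd36* and *Gpihbp1*, genes of capillaries, and at 148, 578 and 664 CPM in the *Selp*-led cluster. RNA of mesenchymal cells was also found in endothelial cells, where the 7 mesenchymal markers stood at 3.46%, 13.5% and 5.99% of their mesenchymal level in the *Gli1*- sort. The same share of the mesenchymal *Pde4d* level would be 3.23, 44.6 and 36.5 CPM, beside the 42.9, 386 and 558 CPM measured. In the *Gli1*+ sort it would be 2.09, 67.4 and 24.0 CPM. By cluster it would be 3.28, 57.9 and 83.6 CPM in the *Cd36*-led cluster, most of the 114 CPM measured there at 21 dpi, and 2.78, 34.7 and 25.2 CPM in the *Selp*-led cluster. What mesenchymal RNA contributes to the endothelial values was not tested. Schwann-like cells of the *Gli1*- sort held 67.2, 304 and 604 CPM of *Pde4d*, with carried-over shares of 9.07, 96.9 and 206 CPM by the same measure. Epidermal cells of the *Gli1*+ sort stayed at 125, 143 and 135.9 CPM.

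**Figure D4:**
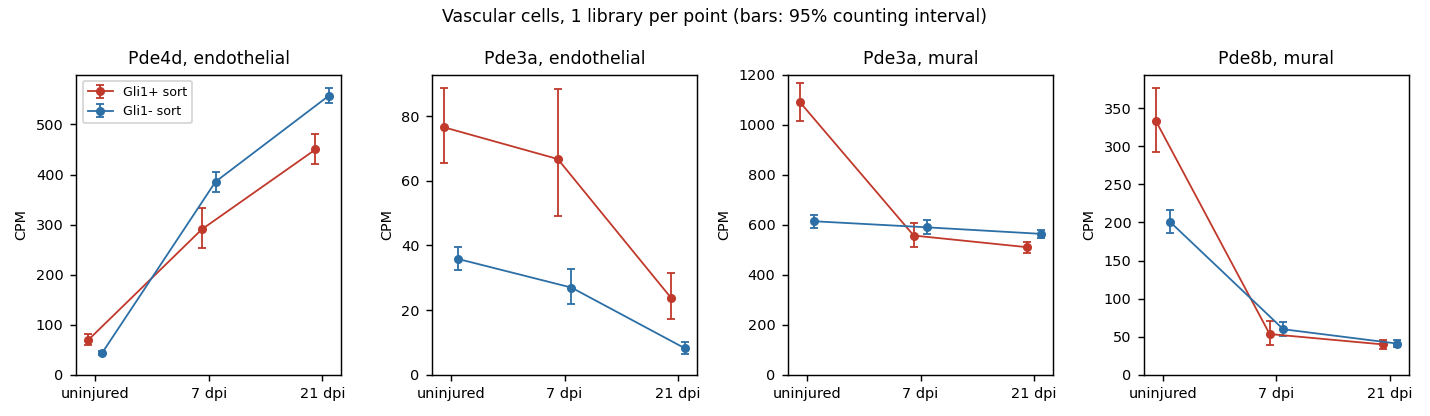
CPM (vertical axes, from 0) of *Pde4d* and *Pde3a* in endothelial cells and of *Pde3a* and *Pde8b* in mural cells by time, *Gli1*+ in red and *Gli1*- in blue, 1 library per point with 95% counting intervals. *Pde4d* reaches 450 and 558 CPM in endothelial cells at 21 dpi, where *Pde3a* is down to 23.7 and 8.16 CPM, and mural *Pde8b* stands at 333 and 201 CPM before injury and at 39.8 and 41.0 CPM at 21 dpi.

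*Pde3a* marked mural cells, the pericytes and smooth muscle cells of vessels. It was at 1089, 557 and 510 CPM for the *Gli1*+ sort and at 614, 589 and 563 CPM in *Gli1*- mural cells, and mural cells were the highest type in all 6 libraries with intervals apart from the second type. The uninjured *Gli1*+ library, with 116 mural cells, was the only one above 614 CPM. In thinned cells, 56.2% of *Gli1*- mural cells of uninjured tendon had a *Pde3a* UMI, at a median of 3191 UMIs per cell, against 0 of 2989 lymphoid cells of the uninjured *Gli1*+ library, at a median of 7767 UMIs, which allows up to 0.100% of cells with a UMI among 2000. Without thinning the shares were 67.7% and 0.200%. In endothelial cells *Pde3a* moved against its mesenchymal course, from 76.5 to 23.7 CPM for *Gli1*+ cells, and from 35.8 to 8.16 CPM in *Gli1*- cells at 21 dpi, with log2 ratios of -1.69 (-2.20 to -1.22) and -2.13 (-2.51 to -1.78). It was lower in both *Gli1*- endothelial clusters, from 36.5 to 12.1 CPM and from 28.7 to 7.22 CPM. *Pde8b* was lower in endothelial cells too, at 36.3, 34.8 and 5.66 CPM for the *Gli1*+ sort and 7.64, 4.50 and 0.530 CPM for the *Gli1*- sort. What mural RNA contributes to the endothelial values of *Pde3a* and *Pde8b* was not tested.

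*Pde8b* was highest in mural cells in all 6 libraries too, although its interval overlapped that of endothelial cells in the *Gli1*+ library of 7 dpi, at 333, 53.5 and 39.8 CPM in the *Gli1*+ and 201, 59.8 and 41.0 CPM in the *Gli1*- sort. Both uninjured libraries stood far above the injured ones, with log2 ratios at 21 dpi of -3.06 (-3.36 to -2.78) and -2.29 (-2.49 to -2.11). The *Gli1*- mural cells lay in 2 clusters whose sizes changed. The cluster led by *Kcnj8* and *Abcc9*, genes of pericytes, among whose leading genes was *Pde8b*, took 640, 167 and 95 cells, and the cluster led by *Myh11* and *Acta2*, genes of smooth muscle, took 249, 372 and 940 cells. Within the first, *Pde8b* was at 298, 297 and 289 CPM, and within the second at 36.5, 20.3 and 34.1 CPM. The level within clusters thus differed little at 21 dpi, and the lower level of the class went with fewer cells of the first cluster. *Pde7b* was also lower over all *Gli1*- mural cells, at 173, 84.1 and 83.4 CPM. Its level differed little in the first cluster, at 264, 305 and 267 CPM, but was higher after injury in the second, at 19.9, 47.5 and 78.2 CPM. The carried-over share of the mesenchymal *Pde7b* level in the second cluster would be 4.87, 17.4 and 39.8 CPM, and what it contributes was not tested. *Pde3a* at 21 dpi went from 472 to 761 CPM in the first and from 855 to 558 CPM in the second, while the class as a whole was at 614 and 563 CPM. The *Gli1*+ mural cells formed 1 cluster, in which such kinds were not told apart. *Pde4d* in mural cells was at 75.2, 171 and 88.8 CPM and at 72.7, 92.8 and 165 CPM, but the carried-over share of the mesenchymal level was 10.4, 161 and 114 CPM and 4.87, 73.6 and 153 CPM, which is close to or above what was measured after injury. What mesenchymal RNA contributes there was not tested.

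**Figure D5:**
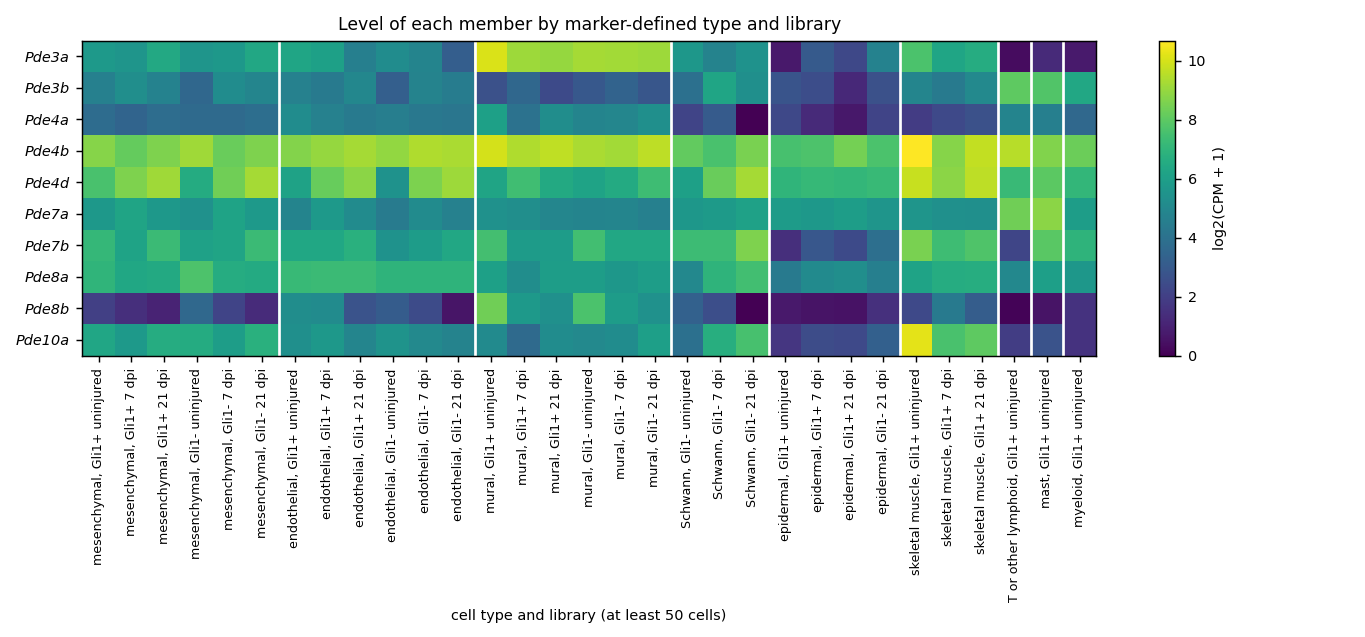
Level of each gene (rows) as log2(CPM + 1), from dark for 0 to yellow for the highest, in every cell type and library with at least 50 cells (columns). *Pde3a* and *Pde8b* are brightest in mural cells, *Pde3b* and *Pde7a* in lymphoid and mast cells, and *Pde10a* in skeletal muscle-like cells of uninjured tendon, at 1227 CPM.

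*Pde3b* and *Pde7a*, the PDE7 gene long known from T cells, were high in lymphoid and mast cells. In the uninjured *Gli1*+ library they were at 262 and 331 CPM in 3007 lymphoid cells and at 219 and 458 CPM in 275 mast cells, against 24.3 and 50.5 CPM in mesenchymal cells. In myeloid cells they were at 83.7 and 60.1 CPM, so that *Pde7a* was near its mesenchymal level there. Lymphoid, mast and myeloid cells held 91.6% of the *Pde3b* and 85.9% of the *Pde7a* UMIs of that library. Over whole libraries *Pde3b* therefore was at 128, 30.8 and 21.9 CPM in the *Gli1*+ sort, the opposite order to its mesenchymal cells at 7 dpi, and *Pde7a* at 176, 69.2 and 51.3 CPM. Among male cells of these libraries the log2 ratio at 7 dpi was -0.70 for *Pde3b* and -0.53 for *Pde7a*, where all cells gave -2.06 and -1.35. In the whole *Gli1*- libraries, which held no immune cluster but neutrophils, *Pde3b* was at 12.1, 34.5 and 25.4 CPM. *Pde4d* over whole libraries kept its mesenchymal direction, at 172, 340 and 504 CPM and at 93.8, 326 and 559.5 CPM. The whole-library counts past 1.5-fold were 6 and 8 of 10 in *Gli1*+ libraries, beside 63.4% and 62.1% of all genes, and 6 and 5 in *Gli1*- libraries, beside 57.6% and 53.7%.

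In skeletal muscle-like cells of the *Gli1*+ sort, *Pde10a* was at 1227, 195 and 263 CPM and *Pde4b* at 1648, 423 and 827 CPM in 111, 74 and 112 cells. Both were highest before injury. Over 31 profiles of 9 cell types, the genes whose pattern was most like that of *Pde3a* were *Vstm4*, *Pla2r1* and *Kcne4*, with Pearson r of 0.96, 0.93 and 0.93, and those most like *Pde8b* were *Casq2*, *Gucy1b1* and *Gucy1a2*, with 0.94, 0.94 and 0.93. Those most like *Pde7a* were *Rhof*, *Xlr4a* and *Trdv4* with 0.88, 0.87 and 0.86, and those most like *Pde3b* were *Prex1*, *4933406I18Rik* and *Mdfic* with 0.88, 0.86 and 0.84. For *Pde4d* the likeness was weaker, with 0.77 for *Osbp2*, 0.71 for *Slpi* and 0.71 for *Gm6634*. The highest r was 0.85 for *Pde4a* (*Ehbp1l1*), 0.78 for *Pde4b* (*Ppme1*), 0.86 for *Pde7b* (*Jdp2*), 0.78 for *Pde8a* (*Clec14a*) and 0.87 for *Pde10a* (*Flnc*). Profiles of a type from several libraries are not independent, and these values are descriptions.

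The rest of the pathway was read from lists in the same mesenchymal cells, where, as above, 59.5% and 56.1% of all genes passed 1.5-fold in *Gli1*+ cells and 54.4% and 53.5% in *Gli1*- cells at 7 and 21 dpi, with medians of -0.20 and -0.38, and -0.08 and -0.12. The 4 lists of the pathway have 11 to 26 genes tested, no count was tested against these shares, and nothing particular to a list is read from them. Of 26 genes that make or read cyclic AMP, 3 were higher and 13 lower in *Gli1*+ cells and 3 higher and 7 lower in *Gli1*- cells at 7 dpi. At 21 dpi it was 2 and 13 for *Gli1*+ cells and 5 and 10 for *Gli1*- cells. The median log2 ratio of the list was -0.52 and -0.53 in the former and -0.06 and -0.30 in the latter at 7 and 21 dpi. With TMM factors the *Gli1*+ counts were 5 and 8 at 7 dpi and 5 and 9 at 21 dpi. The genes named by the rule were *Rapgef3*, which encodes EPAC1, with 13.7, 2.09 and 2.44 CPM for *Gli1*+ cells, and 15.9, 2.99 and 2.80 CPM in *Gli1*- cells, *Pkia*, an inhibitor of protein kinase A, with 27.5, 12.4 and 9.69 CPM and 40.5, 13.4 and 10.8 CPM, the soluble cyclase gene *Adcy10*, which was lower but at or under 1.49 CPM, and *Bves*, which was higher but at or under 1.55 CPM. *Rapgef3* and *Pkia* were lower in all 4 injured libraries. Of 12 other phosphodiesterase genes with enough UMIs at 7 dpi, 4 were higher and 5 lower in *Gli1*+ cells and 3 higher and 7 lower in *Gli1*- cells, and of 11 at 21 dpi 2 were higher and 6 lower in each sort. Their medians were -0.11 and -0.61 for *Gli1*+ cells and -0.75 and -0.81 for *Gli1*- cells. Among those, *Pde1a*, which calcium and calmodulin activate, was at 55.6 and 26.0 CPM for *Gli1*+ cells, and 74.4 and 31.2 CPM in *Gli1*- cells of uninjured and 7 dpi tendon, *Pde4c* at 35.8 and 4.27 CPM and 7.15 and 2.296 CPM, *Pde2a* at 8.35 and 1.07 CPM and 9.86 and 2.75 CPM, and *Pde9a* at 7.24 and 1.94 CPM and 4.55 and 1.93 CPM.

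Of 16 anchoring proteins and partners of these enzymes, 2 were higher and 7 lower in each sort at 7 dpi, and 1 higher and 6 lower in each at 21 dpi. Their medians were -0.42 and -0.48 for *Gli1*+ cells and -0.49 and -0.33 for *Gli1*- cells, and with TMM factors the *Gli1*+ counts were 3 and 5, and 3 and 3. *Akap12*, an anchor of protein kinase A, was at 237, 49.1 and 33.3 CPM for *Gli1*+ cells, and 244, 54.0 and 36.4 CPM in *Gli1*- cells. *Arrb1*, an arrestin that brings PDE4 to receptors, was at 26.2 and 3.84 CPM and 15.9 and 5.44 CPM in uninjured and 7 dpi tendon, and *Akap6*, which binds PDE4D, went the other way, at 4.94 and 18.6 CPM and 6.42 and 13.4 CPM. Of 14 transcripts that cyclic AMP can induce, 2 were higher and 6 lower in *Gli1*+ cells and 2 higher and 7 lower in *Gli1*- cells at 7 dpi, and 4 and 6 and 3 and 6 at 21 dpi, with medians from -0.54 to -0.48 in the 4 comparisons. At 21 dpi in *Gli1*+ cells the split became 5 higher and 1 lower with TMM factors. *Fos*, *Fosb* and *Junb* of this list are also on a list of 10 genes induced by dissociation and stress, of which 8 and 10 were lower at 7 dpi, from a summed 28281 to 12796 CPM for *Gli1*+ cells, and from 34259 to 13697 CPM in *Gli1*- cells, and *Areg* was higher, at 2.64 and 9.66 CPM and 0.0812 and 1.44 CPM. What the stress transcripts contribute to the other values was not tested. All 6 cycling genes were higher at 7 and 21 dpi in both sorts, *Cdk1* from 0.979 to 28.3 CPM in *Gli1*+ cells, while the 2 nuclear-retained RNAs did not move together. *Malat1* was at 27219, 13385 and 19780 CPM for *Gli1*+ cells, and 16905, 10726 and 18743 CPM in *Gli1*- cells, lower by 1.5-fold in both sorts at 7 dpi and in neither at 21 dpi. *Neat1* was at 676, 621 and 694 CPM and at 390.5, 638 and 796 CPM, higher by 1.5-fold in *Gli1*- cells at both times. Of the 12 immune genes, 12 and 11 were lower in *Gli1*+ cells at 7 and 21 dpi, and of 8 tested in *Gli1*- cells 5 were higher and 2 lower, and 3 higher and 0 lower. They summed to 80.3 CPM in mesenchymal cells of uninjured *Gli1*+ tendon and to between 8.01 and 14.9 CPM in those of the other 5 libraries.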

How the data were processed

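scRNA-seq of sorted Achilles tendon cells was deposited as counts: UMIs of 33696 genes per barcode, which the authors obtained with 10x 3' v3 chemistry and Cell Ranger. The matrix headers name version 9.0.0 and the submitters' processing notes 3.1.0, STAR and mm10. The annotation release and the counting of introns were not given in the sources used here. Gene positions are those of GENCODE M21 (GRCm38), which holds 94.9% of the gene IDs.

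Barcodes were kept with at least 200 genes and 1000 UMIs, log10 genes over log10 UMIs of at least 0.7, and at most 5% mitochondrial and 5% hemoglobin UMIs. Scrublet in scanpy 1.11.5 removed doublets at a rate of 0.8% for each 1000 cells, in place of the authors' caller. Each sort was clustered with 2000 variable genes, 30 components, 20 neighbors and Leiden resolution 0.5, without the members or the markers among the variable genes. Clusters were named from at least 3 raised markers. UMIs were summed per library and type. Intervals are exact Poisson for CPM, exact binomial for ratios, and Clopper-Pearson for shares, at 95%. A count of 0 was given the limit of 3 counts. UMIs of 1 library are not replicates, so the intervals cover counting error only. TMM factors came from edgeR 4.0.16. Genes needed at least 10 UMIs over the libraries compared. The log2 ratio and its interval were tried on simulated counts with counting error only, which the interval assumes, so spread between mice is not covered. There, 9.67% of unchanged genes in the *Gli1*+ and 8.33% in the *Gli1*- comparison of 7 dpi to uninjured passed 1.5-fold.

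All 10 members are described. Genes of the other lists were named when they differed by 1.5-fold in the same direction in both sorts at 7 or 21 dpi with at least 50 UMIs, up to 4 per list (1 of them is not reported here), and for each member the 3 genes with the highest r of log2(CPM + 1), among genes with at least 500 UMIs, were taken, of which the first alone is given for 5 members. The members, lists and markers were chosen with earlier results of these data known. The design assumed protein sequences for a comparison of the enzymes, which was not made here. The alternatives tried were another scaling, other cell filters, other clusterings, marker-based selection of cells, thinning, means over cells, cells of 1 sex, and leaving out clusters.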

Additional observations from a re-analysis of the deposited data

Results flagged for a closer look

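Differences that ran in opposite directions between sorts or cell types are listed here, each without a test, since there was 1 library per condition. *Pde7b* in mesenchymal cells at 7 dpi had a log2 ratio to uninjured of -0.91 in *Gli1*+ cells and 0.15 in *Gli1*- cells, from uninjured levels of 137 and 67.6 CPM to 72.8 and 75.3 CPM. *Pde3a* in mesenchymal cells at 7 dpi was at -0.17 in *Gli1*+ cells and 0.12 in *Gli1*- cells, both under 1.5-fold. With TMM factors the former was 0.13, and in male *Gli1*+ cells alone it was at 0.39, and at 0.10 in male *Gli1*- cells, so the directions were not opposite among male cells. At 21 dpi *Pde3a* was higher in mesenchymal cells and lower in endothelial cells, at 0.72 and -1.69 in the *Gli1*+ sort and 0.85 and -2.13 in the *Gli1*- sort. In the *Gli1*+ sort it was also lower in mural cells, at -1.09, where the uninjured library held 116 mural cells. *Pde7b* at 21 dpi was higher in *Gli1*- mesenchymal cells, at 1.21, and lower in *Gli1*- mural cells, at -1.06, although neither mural cluster was lower by itself, at 264 and 267 CPM and at 19.9 and 78.2 CPM.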

How the results depend on the processing

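No paired analysis was made: the values come from no test, with 1 library per condition, and a fit of sort plus time over the 6 libraries was not run. The numbers of members past 1.5-fold in mesenchymal cells, 7 and 3 in *Gli1*+ cells and 7 and 6 in *Gli1*- cells at 7 and 21 dpi, stayed within 1.5 times in 38 comparisons with an alternative and not in 8. The exceptions in *Gli1*+ cells at 7 dpi were 4 with TMM factors, 3 with thinning, 3 with the mean of each cell's CPM, 1 at 2-fold and 0 without the *Tnn*- and *Saa3*-led clusters. With TMM factors 5 members passed in *Gli1*+ cells at 21 dpi. In *Gli1*- cells at 7 dpi 4 passed at 2-fold and 4 without the *Tnn*- and *Saa3*-led clusters. TMM factors moved the log2 ratios by 0.30 and 0.46 in *Gli1*+ cells and by 0.10 and 0.18 in *Gli1*- cells at 7 and 21 dpi, which split the *Gli1*+ counts at 7 dpi into 3 higher and 1 lower and at 21 dpi into 4 higher and 1 lower. *Pde4d*, for one, was then at 1.31 and 2.04 in *Gli1*+ cells and 1.93 and 2.88 in *Gli1*- cells. Of 23 ratios past 1.5-fold, 11 stayed past it in the same direction under every alternative run, among them *Pde4d* at 21 dpi in both sorts, with ranges of 1.30 to 2.04 and 2.32 to 2.88. Without the *Tnn*- and *Saa3*-led clusters *Pde4d* changed sign in *Gli1*+ cells at 7 dpi, to -0.047, and *Pde7a* in *Gli1*- cells at 7 dpi, to -0.14. *Pde8b* in *Gli1*+ cells at 7 dpi changed sign with thinning (0.058), in male cells (0.042) and without those clusters (0.14), on few UMIs. The cause of these shifts was not tested. Cells chosen by marker UMIs numbered 48 in the *Gli1*+ library of 7 dpi and gave no value there, and *Gli1*- cells at 21 dpi gave no within-sex value, since uninjured *Gli1*- tendon held 0 female cells and 21 dpi tendon 3 male cells. Without a minimum of UMIs 61.1% to 66.8% of all genes passed 1.5-fold. Depth limits *Pde8b* and *Pde4a*, the members with the fewest UMIs in mesenchymal cells.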
